A study of Mus musculus with 12 samples.

Results

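The unfolded protein response and the ATF4 stress pathway were followed in 38 genes, of 18193 genes that the arrays name, in cells of the mouse superior cervical ganglion (SCG), which belongs to the sympathetic nervous system. The 38 genes were chosen by name for their known roles, with earlier results of these data known, and all 38 have a probe set (a group of probes against 1 transcript) that carries that gene symbol alone. For a gene with several probe sets, the probe set that was brightest on average over the 12 arrays was used. The 38 genes have 98 probe sets, so that 60 other probe sets of 30 genes remained for comparison. No filter on low values was applied.

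Messenger RNA was measured in 3 groups with 4 biological replicates each, on Affymetrix mouse expression arrays. The 2D group held SCG cells grown on a flat surface, the 3D group SCG cells grown in polystyrene scaffolds, and the tissue group freshly dissected SCG as the stand-in for the living animal. All mice were of strain CD1, an outbred stock, and neither the labels nor the methods name a transgene or a drug. Both cultures were collagen-coated and were kept for several days in medium with serum and nerve growth factor, which the fresh tissue did not see. The cultured cells had been freed from the ganglia with collagenase, and by the methods a dish or scaffold pooled cells of more than 1 ganglion. The labels give an age of 21 days for every sample, while the methods name neonatal mice, and the labels give a polystyrene Petri dish for the 2D cells where the methods give glass bottom dishes. Ganglia hold neurons together with glia, fibroblasts and vessels, and an array reads all of them at once. Fewer cells of a type and less RNA per cell therefore cannot be told apart in these values.

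The endoplasmic reticulum (ER) folds proteins meant for membranes and for export. When unfolded proteins collect there, the membrane sensors PERK (Eif2ak3), IRE1 (Ern1) and ATF6 start the unfolded protein response, which raises chaperones, folding enzymes and the machinery that removes misfolded proteins. PERK also slows translation through the factor eIF2, which favours translation of ATF4, a transcription factor for amino acid synthesis, amino acid uptake and stress genes. ATF4 also answers to eIF2 kinases that sense amino acid shortage, viral RNA or lack of heme, so that its targets form a broader integrated stress response. Secretory cells and growing cells make strong use of both arms.

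Much of this control runs through short promoter elements, and the promoters of the genes that the results turn on are therefore shown first. Promoter windows of 250 bases before to 50 bases after the start were taken from RefSeq (mouse build GRCm38.p6) and were found for 34 of the 38 genes, without Atf6, Hyou1, Manf and Slc7a5. They were searched on both strands for the ER stress element ERSE (CCAAT and CCACG separated by 9 bases), for ERSE-II (ATTGG and CCACG separated by 1 base), for the element UPRE (TGACGTGG) and for the C/EBP-ATF response element CARE (TGATG and AA separated by 1 base). The members hold these elements in 14 of 34 genes. ERSE lay in 7 of 34 (Calr, Canx, Creld2, Dnajc3, Hsp90b1, Hspa5 and Pdia6), against 0.137% of all 27025 genes in the promoter table. ERSE-II lay in 1 of 34 (Herpud1), against 0.0444% of all genes, and UPRE in 0 of 34, against 0.714%. CARE lay in 7 of 34 (Asns, Chac1, Herpud1, Nupr1, Slc7a11, Trib3 and Vldlr), against 4.51% of all genes. The elements can overlap by design, since ERSE, ERSE-II and UPRE share letters, and a match of letters is a description and not a measured binding site.

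Of the chaperone and degradation genes, Hspa5, Creld2 and Herpud1 are shown. Hspa5 lies on the + strand at chr2:34771840-34772139, Creld2 on the + strand at chr15:88819396-88819695 and Herpud1 on the + strand at chr8:94386179-94386478. Capitals mark ERSE in Hspa5 and Creld2, and both CARE and ERSE-II, in this order, in Herpud1. Positions below count from the start, at 0.
Hspa5: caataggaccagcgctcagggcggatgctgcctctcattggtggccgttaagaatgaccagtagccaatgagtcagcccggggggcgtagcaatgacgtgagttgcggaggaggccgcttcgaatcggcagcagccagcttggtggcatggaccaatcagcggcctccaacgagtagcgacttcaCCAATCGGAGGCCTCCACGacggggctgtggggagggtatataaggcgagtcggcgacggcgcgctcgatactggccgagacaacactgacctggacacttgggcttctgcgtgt
Creld2: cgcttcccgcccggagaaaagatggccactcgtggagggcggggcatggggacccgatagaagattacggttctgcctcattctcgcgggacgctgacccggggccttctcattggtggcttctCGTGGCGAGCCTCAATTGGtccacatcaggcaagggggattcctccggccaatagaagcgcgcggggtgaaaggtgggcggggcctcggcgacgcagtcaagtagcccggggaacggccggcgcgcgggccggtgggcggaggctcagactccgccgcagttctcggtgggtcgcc
Herpud1: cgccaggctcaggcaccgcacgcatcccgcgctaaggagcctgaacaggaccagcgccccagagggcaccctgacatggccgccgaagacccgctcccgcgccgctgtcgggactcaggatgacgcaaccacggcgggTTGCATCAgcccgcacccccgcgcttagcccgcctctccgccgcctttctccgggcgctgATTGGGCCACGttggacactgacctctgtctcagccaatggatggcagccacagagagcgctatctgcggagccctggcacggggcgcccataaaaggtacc

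The element of Hspa5 begins at base -65 and that of Creld2, on the opposite strand, at base -126. Of the ATF4 targets, Chac1, Trib3 and Asns are shown because their windows hold CARE. Chac1 lies on the + strand at chr2:119350992-119351291, Trib3 on the - strand at chr2:152344011-152344310 and Asns on the - strand at chr6:7693160-7693459, each written in the direction of its transcription. Capitals mark CARE, which begins at base -193 in Chac1, at base 14 in Trib3 and at base -23 in Asns.
Chac1: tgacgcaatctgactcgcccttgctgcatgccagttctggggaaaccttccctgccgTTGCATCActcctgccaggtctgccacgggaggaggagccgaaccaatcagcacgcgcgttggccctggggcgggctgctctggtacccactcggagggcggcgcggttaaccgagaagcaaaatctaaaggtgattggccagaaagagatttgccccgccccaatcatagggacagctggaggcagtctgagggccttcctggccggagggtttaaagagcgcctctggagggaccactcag
Trib3: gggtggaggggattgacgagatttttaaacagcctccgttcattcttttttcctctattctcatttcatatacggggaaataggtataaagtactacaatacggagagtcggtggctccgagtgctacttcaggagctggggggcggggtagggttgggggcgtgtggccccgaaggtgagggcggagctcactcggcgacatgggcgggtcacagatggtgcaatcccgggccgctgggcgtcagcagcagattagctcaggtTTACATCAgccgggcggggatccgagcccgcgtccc
Asns: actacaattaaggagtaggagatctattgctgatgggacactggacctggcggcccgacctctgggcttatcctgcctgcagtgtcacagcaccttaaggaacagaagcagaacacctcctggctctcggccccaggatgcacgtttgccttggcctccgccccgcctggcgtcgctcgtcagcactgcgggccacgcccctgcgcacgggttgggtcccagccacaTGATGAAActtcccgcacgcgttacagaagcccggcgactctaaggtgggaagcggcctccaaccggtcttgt

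Values are log2 levels made with the RMA algorithm, on which a difference of 1 is a doubling, and levels of different genes cannot be compared because probes differ in brightness. Each comparison used the 8 arrays of its groups in limma, and a gene was called where the p adjusted (Benjamini-Hochberg) over 45037 probe sets was under 0.05. Differences are given with their standard error (SE). The tissue arrays were not alike. The 3′ control probe set of Gapdh read above its 5′ probe set by 0.36 to 1.27 on the culture arrays and by 1.10, 3.45, 3.05 and 1.0 on tissue replicates 1 to 4, a difference that grows where RNA is shorter. Their values also spread less, with an SD over all probe sets of 2.14 and 1.93 against 2.31 to 2.42 on the other 10 arrays. The muscle gene Myh1 was at 4.38 on tissue replicate 1 and at 11.23, 10.94 and 10.26 on the others. The median of 8 muscle genes was 4.55, 8.14, 6.33 and 8.85 on tissue replicates 1 to 4, beside 4.67 to 4.86 in 2D. The neuronal markers Th and Dbh were bright on every array, at 9.44 or above. Because of the 3′ minus 5′ difference, tissue results are given with all 4 arrays and without replicates 2 and 3. Replicate 4, with the highest muscle median, is kept in both.

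**Figure D1:**
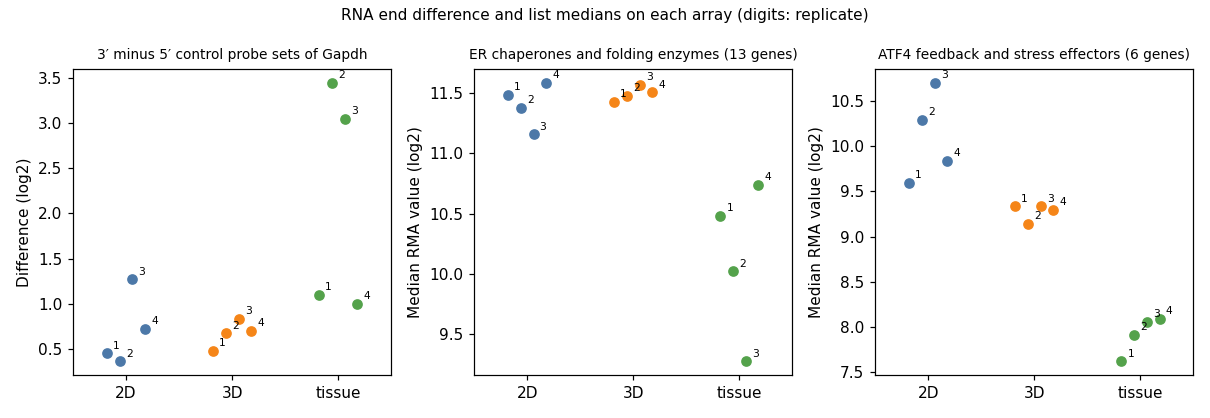
The left panel plots the 3′ minus 5′ log2 difference of the Gapdh control probe sets, and the other panels the median log2 level of the 13 chaperone genes and of the 6 ATF4 effector genes, for each array, with digits for replicates. Tissue replicates 2 and 3 stand at 3.45 and 3.05 on the left, and the tissue medians lie below the culture medians on all 4 arrays, at 9.27 to 10.74 for chaperones and 7.62 to 8.09 for effectors.

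Most stress genes were lower in fresh SCG tissue than in either culture, and of the 6 role groups the ATF4 effectors had the lowest median difference. Against 2D, 29 of the 38 genes were lower in tissue and 0 higher in limma, while the methods' t-test without adjustment found 1 higher, Xbp1. The share over all genes was 14.3% lower and 9.87% higher. Against 3D, 27 were lower and 2 were higher, the serine synthesis enzyme Phgdh and the cationic amino acid transporter Slc7a1, where 20.1% of all genes were lower and 15.5% higher. The median log2 difference of the 38 genes was -1.37 against 2D and -1.08 against 3D, beside 0.03 over all genes in both comparisons. Of the 60 other probe sets of these genes, 27 were lower and 1 higher against 2D, and 27 were lower and 2 higher against 3D, the higher ones being of Hspa5 and, against 3D, of Phgdh.

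Without tissue replicates 2 and 3, 23 genes were lower and 0 higher against 2D, where 12.3% of all genes were lower and 10.1% higher. The calls lost were those of Hsp90b1, Calr, Dnajc3, Nupr1, Vldlr and Slc7a11. Against 3D, 29 were lower and 2 higher, where 24.6% of all genes were lower and 22.7% higher. The median difference of the 38 genes was then smaller, at -1.05 against 2D and -0.72 against 3D. The number of calls also changed when a single array was left out. Without 2D replicate 2 the count against 2D was 18, and without tissue replicate 2 it was 19. Of all 18193 genes, 1555 and 1475 were lower in these fits, where 2597 were lower with all arrays. The median difference of the 38 genes was -1.32 and -1.38 in these fits.

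The members are brighter than most genes, with a median level of 10.19 over the 12 arrays against 7.68 for all genes, and bright genes as a whole read lower in tissue. Among the 2936 genes with a mean of at least 10, a limit chosen after seeing the data, 23.1% were lower against 2D, with a median difference of -0.35. Of the 22 members as bright as that, 15 (68.2%) were lower, with a median difference of -1.22. Against 3D, 30.9% of the bright genes and 14 of the 22 members (63.6%) were lower, with medians of -0.35 and -0.96.

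**Figure D2:**
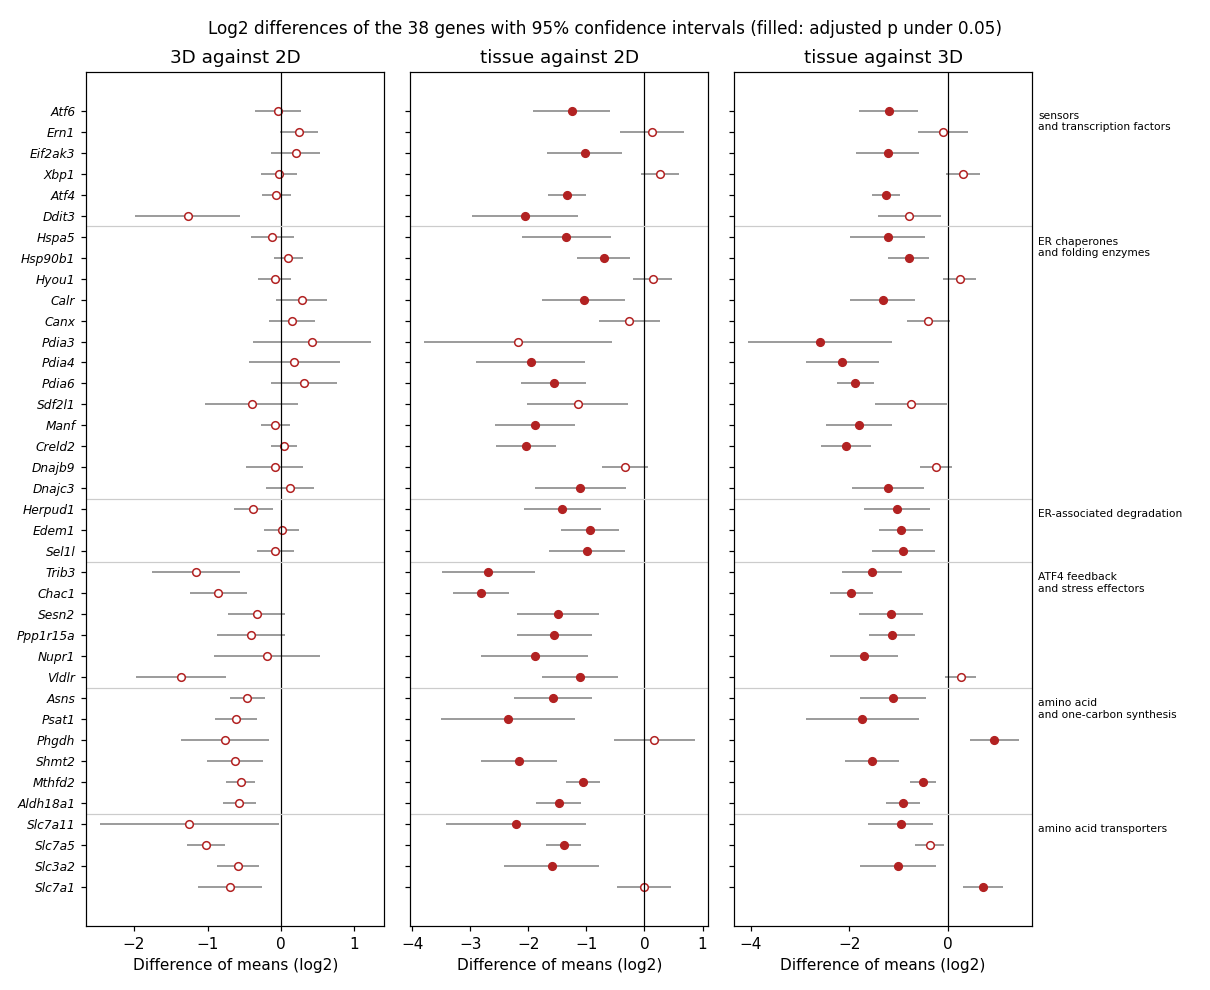
Each point is the log2 difference of group means of 1 gene and each line its 95% confidence interval from limma, in 3 panels for 3D against 2D, tissue against 2D and tissue against 3D, with genes grouped by role. Filled points passed the threshold, which 0 genes did in the first panel, 29 in the second and 29 in the third.

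The sensors and transcription factors did not move as 1 group. Of the 6 genes, 4 were lower in tissue against 2D and 3 against 3D. Atf4 codes for the transcription factor at the centre of the integrated stress response. Atf4 was at 12.23, 12.44, 12.33 and 12.14 in 2D, at 12.18, 12.14, 12.32 and 12.24 in 3D and at 10.95, 11.01, 10.75 and 11.11 in tissue. Every tissue array lay below all culture arrays, and the cultures overlapped. Atf4 was lower in tissue, with a log2 difference of -1.33 ± 0.14 (SE, adjusted p of 6.61e-04) against 2D and of -1.27 ± 0.13 (SE, adjusted p of 1.76e-04) against 3D. Another probe set of Atf4 gave a log2 difference of 0.06 against 2D (adjusted p of 0.940) and one of 0.20 against 3D (adjusted p of 0.746), and the mean over its 3 probe sets ended both calls (adjusted p of 0.129 and 0.175), so that the fall rests on 1 probe set.

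Ddit3 codes for CHOP, a transcription factor linked with cell death under prolonged ER stress. In 2D Ddit3 read 9.56, 10.52, 10.99 and 9.57, in 3D 9.17, 8.74, 8.88 and 8.77 and in tissue 8.40, 7.88, 7.36 and 8.76. The 2D arrays lay above all others, and 3D and tissue overlapped at 1 array each. Ddit3 was lower in tissue than in 2D, with a log2 difference of -2.06 ± 0.40 (SE, adjusted p of 0.00885). Against 3D the difference was -0.79 ± 0.28 (SE, adjusted p of 0.0590), which did not pass the threshold. Tissue replicates 1 and 4 alone gave -1.58 (adjusted p of 0.0483) against 2D and -0.31 (adjusted p of 0.147) against 3D.

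Atf6 and Eif2ak3 code for the ATF6 and PERK sensors. For Atf6 the arrays gave 9.37, 9.85, 9.19 and 9.55 in 2D, 9.29, 9.53, 9.50 and 9.46 in 3D and 8.54, 8.49, 7.35 and 8.56 in tissue. The levels of Eif2ak3 on the 4 arrays were 9.70, 10.11, 9.59 and 9.91 in 2D, 10.25, 9.92, 9.75 and 10.18 in 3D and 9.08, 9.04, 7.91 and 9.16 in tissue. In both genes each tissue array lay below every culture array, and tissue replicate 3 was lowest. Atf6 was lower in tissue, with a log2 difference of -1.26 ± 0.29 (SE, adjusted p of 0.0180) against 2D and of -1.21 ± 0.27 (SE, adjusted p of 0.00893) against 3D. Eif2ak3 was lower in tissue, with a log2 difference of -1.03 ± 0.29 (SE, adjusted p of 0.0333) against 2D and of -1.23 ± 0.28 (SE, adjusted p of 0.0105) against 3D. Both kept their calls without tissue replicates 2 and 3, with differences against 2D of -0.94 (adjusted p of 0.0192) for Atf6 and -0.71 (adjusted p of 0.0300) for Eif2ak3. Leaving out 1 array at a time ended the call of Eif2ak3 against 2D in 5 of 8 fits and that of Atf6 in 1 of 8. Neither lost its call against 3D in such fits.

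Ern1 and Xbp1 belong to the same arm, in which IRE1 removes a short piece from the Xbp1 messenger so that an active factor is made. These probe sets were not used to separate the spliced form. Ern1 was at 9.09, 9.33, 9.24 and 9.60 in 2D, at 9.49, 9.67, 9.47 and 9.59 in 3D and at 9.22, 9.70, 9.96 and 8.89 in tissue. In 2D Xbp1 read 11.96, 11.73, 11.91 and 11.88, in 3D 12.11, 11.64, 11.81 and 11.80 and in tissue 12.06, 12.32, 11.93 and 12.25. In both genes the 3 groups overlapped. Neither gene passed the threshold, with differences in tissue of 0.13 ± 0.24 (SE, adjusted p of 0.710) against 2D for Ern1 and 0.27 ± 0.14 (SE, adjusted p of 0.189) for Xbp1. Against 3D they were -0.11 ± 0.23 (SE, adjusted p of 0.712) for Ern1 and 0.30 ± 0.15 (SE, adjusted p of 0.149) for Xbp1. With tissue replicates 1 and 4 alone, Ern1 differed between tissue and 3D by -0.50 (adjusted p of 0.0112). The direction of Xbp1 depends on the probe set: against 3D 2 of its other probe sets were lower in tissue, with differences of -1.86 (adjusted p of 0.0322) and -0.99 (adjusted p of 0.0303). With cyclic loess the probe set used was higher in tissue, by 0.73 against 2D (adjusted p of 0.0247) and by 0.75 against 3D (adjusted p of 0.0167).

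**Figure D3:**
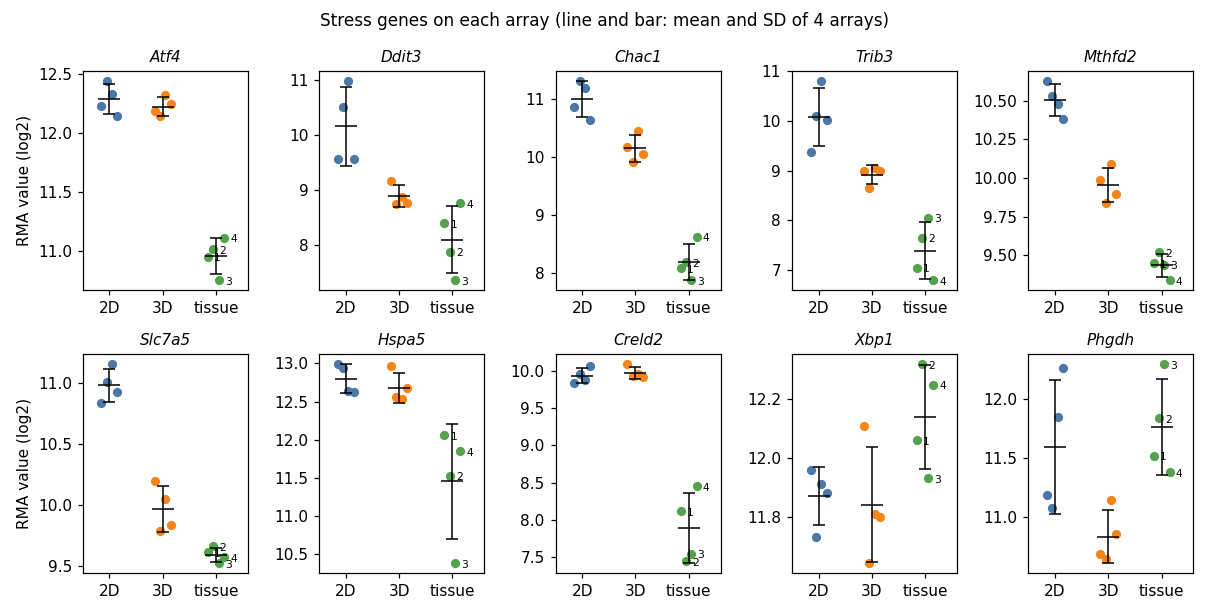
Points are log2 RMA levels of 10 genes on each of the 12 arrays, and the line and bar give the mean and SD of 4 arrays; each panel has its own axis, and digits number the tissue replicates. Tissue lies below both cultures in Atf4, Chac1, Trib3, Mthfd2, Slc7a5, Hspa5 and Creld2, overlaps 3D in Ddit3, overlaps both cultures in Xbp1 and lies above 3D alone in Phgdh.

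ER chaperones and folding enzymes hold nascent proteins, some of them by their sugars, or form disulfide bonds. Of the 13 genes, 8 were lower in tissue against 2D and 9 against 3D, with 0 higher. Their median differences were -1.15 and -1.23, and without tissue replicates 2 and 3 they were -0.70 and -0.82, with 5 and 9 genes lower. Hspa5 codes for BiP, the main ER chaperone that also holds the sensors silent, and is given for that role. For Hspa5 the arrays gave 12.99, 12.94, 12.64 and 12.63 in 2D, 12.96, 12.56, 12.53 and 12.68 in 3D and 12.06, 11.53, 10.38 and 11.85 in tissue. Tissue lay below both cultures on all arrays, furthest on replicate 3. Hspa5 was lower in tissue, with a log2 difference of -1.35 ± 0.34 (SE, adjusted p of 0.0236) against 2D and of -1.23 ± 0.33 (SE, adjusted p of 0.0218) against 3D. Its call was lost in 4 of the 8 fits that left out 1 array against 2D and in 3 of 8 against 3D. The 2 other probe sets of Hspa5 ran in opposite directions. Against 2D 1 of them was lower, at -1.86 (adjusted p of 0.00231), and 1 was higher, at 0.61 (adjusted p of 0.0407).

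Creld2, an ER stress-inducible protein, and Pdia6, a disulfide isomerase, had the smallest adjusted p of the group in both tissue comparisons. The levels of Creld2 on the 4 arrays were 9.83, 9.96, 9.88 and 10.06 in 2D, 10.09, 9.93, 9.96 and 9.91 in 3D and 8.12, 7.45, 7.55 and 8.45 in tissue. Pdia6 was at 11.36, 11.23, 10.55 and 11.59 in 2D, at 11.43, 11.48, 11.57 and 11.51 in 3D and at 9.64, 9.57, 9.27 and 9.99 in tissue. The tissue arrays lay apart from the cultures in both genes, and the cultures overlapped. Creld2 was lower in tissue, with a log2 difference of -2.04 ± 0.23 (SE, adjusted p of 8.14e-04) against 2D and of -2.08 ± 0.22 (SE, adjusted p of 2.50e-04) against 3D. Pdia6 was lower in tissue, with a log2 difference of -1.57 ± 0.25 (SE, adjusted p of 0.00375) against 2D and of -1.88 ± 0.16 (SE, adjusted p of 7.94e-05) against 3D. Without tissue replicates 2 and 3 the differences against 2D were -1.65 (adjusted p of 0.00125) for Creld2 and -1.37 (adjusted p of 0.0222) for Pdia6.

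Manf, a secreted ER stress protein, and Pdia4, a disulfide isomerase, also fell. The difference against 2D was -1.89 ± 0.30 (SE, adjusted p of 0.00387) for Manf and -1.96 ± 0.42 (SE, adjusted p of 0.0125) for Pdia4. Calr codes for calreticulin, a lectin chaperone that binds calcium. In 2D Calr read 12.86, 12.82, 12.29 and 13.02, in 3D 13.15, 12.98, 12.90 and 13.08 and in tissue 11.97, 11.73, 10.79 and 12.30. Tissue replicate 4 lay just above 2D replicate 3, and tissue lay below all 3D arrays. Calr was lower in tissue, with a log2 difference of -1.05 ± 0.32 (SE, adjusted p of 0.0443) against 2D and of -1.33 ± 0.29 (SE, adjusted p of 0.00830) against 3D. The chaperone Hsp90b1 and the co-chaperone Dnajc3 fell by 0.71 (adjusted p of 0.0376) and 1.10 (adjusted p of 0.0495) against 2D. Calr, Hsp90b1 and Dnajc3 lost these calls without tissue replicates 2 and 3 (adjusted p of 0.102, 0.0909 and 0.0658) and kept those against 3D (adjusted p of 7.29e-04, 0.00580 and 0.00131). On leaving out 1 array at a time, the calls against 2D were lost in 4 of 8 fits for Calr, 5 of 8 for Hsp90b1 and 6 of 8 for Dnajc3. Pdia3, a partner of calreticulin, fell against 3D by 2.6 (adjusted p of 0.0151), while its difference of -2.18 against 2D did not pass (adjusted p of 0.0572).

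Hyou1, Canx, Sdf2l1 and Dnajb9, also ER chaperones or their partners, passed in neither comparison. Their differences against 2D were 0.14 ± 0.15 (SE, adjusted p of 0.486) for Hyou1, -0.26 ± 0.23 (SE, adjusted p of 0.409) for Canx, -1.15 ± 0.39 (SE, adjusted p of 0.0603) for Sdf2l1 and -0.34 ± 0.18 (SE, adjusted p of 0.180) for Dnajb9. The 95% confidence interval ran from -0.20 to 0.48 for Hyou1 and from -2.02 to -0.28 for Sdf2l1, so that a fall of the median size of the group lies outside the first and inside the second. The mean of Hyou1 in tissue was above those of both cultures. Probe sets of Canx disagreed, since one other was at -1.68 against 2D (adjusted p of 0.0615) and at -1.99 against 3D, where it passed (adjusted p of 0.00888), and the mean of the Canx probe sets also passed against 3D (-0.73, adjusted p of 0.0200).

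Genes of ER-associated degradation carry misfolded proteins out of the ER to the proteasome, and all 3 were lower in tissue in both comparisons. Herpud1 is a membrane protein of that complex, whose promoter holds both elements above. For Herpud1 the arrays gave 9.82, 10.23, 10.03 and 10.02 in 2D, 9.90, 9.59, 9.51 and 9.60 in 3D and 9.16, 8.55, 7.73 and 9.01 in tissue. Tissue lay below both cultures, and 3D replicate 1 lay within 2D. Herpud1 was lower in tissue, with a log2 difference of -1.41 ± 0.30 (SE, adjusted p of 0.0119) against 2D and of -1.04 ± 0.29 (SE, adjusted p of 0.0250) against 3D. Edem1, which picks out glycoproteins for removal, was measured at a narrow range in 3D. The levels of Edem1 on the 4 arrays were 9.50, 9.69, 9.23 and 9.66 in 2D, 9.51, 9.53, 9.56 and 9.52 in 3D and 9.03, 8.45, 8.09 and 8.75 in tissue. Edem1 was lower in tissue, with a log2 difference of -0.94 ± 0.22 (SE, adjusted p of 0.0184) against 2D and of -0.95 ± 0.20 (SE, adjusted p of 0.00652) against 3D. Sel1l, the adaptor of the ubiquitin ligase, had a difference of -0.99 ± 0.29 (SE, adjusted p of 0.0407) against 2D and -0.92 ± 0.28 (SE, adjusted p of 0.0350) against 3D. All 3 kept both calls without tissue replicates 2 and 3, with adjusted p between 0.00163 and 0.0481. They were less stable when 1 array at a time was left out. Sel1l then lost its call in 5 of 8 fits in each comparison. Herpud1 lost its call in 5 of 8 fits against 3D, and Edem1 in 3 of 8 against 2D. Herpud1 against 2D and Edem1 against 3D kept their calls in all 8.

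The feedback and effector genes downstream of ATF4 had the largest median fall of the role groups. All 6 were lower in tissue against 2D and 5 against 3D, with median differences of -1.72 and -1.35 that were -1.58 and -1.31 without tissue replicates 2 and 3. Chac1 degrades glutathione and is a well known target of ATF4. Chac1 was at 10.86, 11.32, 11.19 and 10.64 in 2D, at 10.18, 9.91, 10.45 and 10.06 in 3D and at 8.08, 8.18, 7.87 and 8.62 in tissue. The 3 groups did not overlap, in the order 2D, 3D and tissue. Chac1 was lower in tissue, with a log2 difference of -2.82 ± 0.22 (SE, adjusted p of 1.19e-04) against 2D and of -1.96 ± 0.19 (SE, adjusted p of 1.54e-04) against 3D. The fall against 2D corresponds to 7.04-fold.

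Trib3, a pseudokinase that restrains ATF4 signalling, followed the same order. In 2D Trib3 read 9.38, 10.09, 10.81 and 10.01, in 3D 8.99, 8.64, 9.06 and 8.99 and in tissue 7.04, 7.65, 8.05 and 6.79. Here too the groups did not overlap. Trib3 was lower in tissue, with a log2 difference of -2.69 ± 0.35 (SE, adjusted p of 0.00167) against 2D and of -1.54 ± 0.27 (SE, adjusted p of 0.00290) against 3D. Without tissue replicates 2 and 3 the differences of Trib3 were larger, -3.16 (adjusted p of 0.00321) against 2D and -2.01 (adjusted p of 2.76e-05) against 3D, and those of Chac1 were -2.65 (adjusted p of 0.00168) and -1.80 (adjusted p of 1.67e-04). Trib3 read higher on tissue replicates 2 and 3 than on replicates 1 and 4.

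Sesn2, a stress protein that restrains mTORC1, Ppp1r15a, the phosphatase subunit that reverses the eIF2 block, and Nupr1, a stress-induced chromatin protein, also fell in both comparisons. Their differences against 2D were -1.49 ± 0.31 (SE, adjusted p of 0.0116) for Sesn2, -1.55 ± 0.28 (SE, adjusted p of 0.00699) for Ppp1r15a and -1.89 ± 0.41 (SE, adjusted p of 0.0134) for Nupr1. Vldlr, a lipoprotein and reelin receptor, stood apart from the other 5. For Vldlr the arrays gave 10.42, 11.19, 11.82 and 10.68 in 2D, 9.80, 9.65, 9.61 and 9.60 in 3D and 9.78, 10.10, 10.06 and 9.71 in tissue. The 2D arrays lay above all others, while 3D and tissue overlapped. Vldlr was lower in tissue than in 2D, with a log2 difference of -1.12 ± 0.29 (SE, adjusted p of 0.0267). Against 3D the difference was 0.25 ± 0.14 (SE, adjusted p of 0.186), and without tissue replicates 2 and 3 the difference against 2D was -1.28 (adjusted p of 0.0562).

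Enzymes of amino acid and one-carbon synthesis were lower in tissue in 5 of 6 genes in both comparisons, and the sixth, Phgdh, was higher against 3D. Mthfd2 is a mitochondrial folate enzyme used by growing cells. The levels of Mthfd2 on the 4 arrays were 10.63, 10.53, 10.48 and 10.38 in 2D, 9.99, 9.84, 10.09 and 9.90 in 3D and 9.45, 9.52, 9.44 and 9.34 in tissue. The 3 groups did not overlap. Mthfd2 was lower in tissue, with a log2 difference of -1.07 ± 0.13 (SE, adjusted p of 0.00113) against 2D and of -0.52 ± 0.12 (SE, adjusted p of 0.0105) against 3D. These calls depended on the scaling of the arrays. Cyclic loess ended both, at -0.08 against 3D (adjusted p of 0.761) and -0.64 against 2D (adjusted p of 0.0502), and centring on bright probe sets ended that against 3D (-0.24, adjusted p of 0.296). Aldh18a1 catalyses the entry step of proline synthesis. Aldh18a1 was at 11.46, 11.58, 11.79 and 11.83 in 2D, at 11.06, 11.08, 11.20 and 11.06 in 3D and at 10.52, 10.02, 9.96 and 10.24 in tissue. Aldh18a1 was lower in tissue, with a log2 difference of -1.48 ± 0.17 (SE, adjusted p of 9.50e-04) against 2D and of -0.92 ± 0.15 (SE, adjusted p of 0.00216) against 3D. Its groups too ran from 2D to 3D to tissue without overlap.

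Shmt2, which moves a one-carbon unit from serine in mitochondria, had the smallest adjusted p of this group against 3D. In 2D Shmt2 read 10.43, 10.71, 11.22 and 11.14, in 3D 10.19, 10.28, 10.34 and 10.20 and in tissue 8.73, 8.71, 8.05 and 9.35. The groups did not overlap. Shmt2 was lower in tissue, with a log2 difference of -2.17 ± 0.29 (SE, adjusted p of 0.00177) against 2D and of -1.54 ± 0.24 (SE, adjusted p of 0.00174) against 3D. The asparagine synthetase Asns differed by -1.57 ± 0.30 (SE, adjusted p of 0.00793) against 2D and -1.12 ± 0.29 (SE, adjusted p of 0.0191) against 3D. The serine synthesis enzyme Psat1 differed by -2.35 ± 0.51 (SE, adjusted p of 0.0137) and -1.74 ± 0.50 (SE, adjusted p of 0.0281). Psat1 varied between the tissue replicates. It was at 9.96, 8.30, 7.26 and 9.39 on tissue replicates 1 to 4, and without replicates 2 and 3 its differences were -1.41 (adjusted p of 0.00808) and -0.79 (adjusted p of 0.00587). On leaving out 1 array at a time, the calls against 3D were lost in 5 of 8 fits for Psat1 and 3 of 8 for Asns. Those against 2D were lost in 0 of 8 for both.

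Phgdh catalyses the entry step of serine synthesis, upstream of Psat1, and went the other way. For Phgdh the arrays gave 11.18, 11.07, 11.85 and 12.27 in 2D, 10.68, 10.64, 11.14 and 10.85 in 3D and 11.52, 11.84, 12.30 and 11.38 in tissue. Tissue lay above all 3D arrays and overlapped 2D. Its difference was 0.93 ± 0.22 (SE, adjusted p of 0.0116) against 3D and 0.17 ± 0.31 (SE, adjusted p of 0.699) against 2D. Of its 3 other probe sets, 1 was higher against 3D, at 1.15 (adjusted p of 0.0242), and the others differed by 0.72 (adjusted p of 0.0609) and 0.07 (adjusted p of 0.778). Without tissue replicates 2 and 3 the difference against 3D was 0.62 (adjusted p of 0.0109).

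The 4 amino acid transporters divided. Slc7a5 and Slc3a2 code for the light and heavy chain of the carrier of large neutral amino acids. The levels of Slc7a5 on the 4 arrays were 10.84, 11.01, 11.16 and 10.93 in 2D, 10.20, 9.79, 10.05 and 9.84 in 3D and 9.61, 9.66, 9.52 and 9.57 in tissue. Slc3a2 was at 11.38, 11.95, 11.73 and 11.47 in 2D, at 11.03, 11.05, 11.07 and 11.04 in 3D and at 10.40, 9.99, 8.95 and 10.80 in tissue. In both genes the 3 groups ran from 2D to 3D to tissue without overlap. Slc7a5 was lower in tissue than in 2D, with a log2 difference of -1.40 ± 0.13 (SE, adjusted p of 3.38e-04). Against 3D it was -0.38 ± 0.13 (SE, adjusted p of 0.0553) and did not pass the threshold. Slc3a2 was lower in tissue, with a log2 difference of -1.60 ± 0.36 (SE, adjusted p of 0.0162) against 2D and of -1.01 ± 0.34 (SE, adjusted p of 0.0487) against 3D. Its call against 3D was lost in 10 of 22 alternatives, among them the replicate block (adjusted p of 0.0507), a trended robust prior (adjusted p of 0.0537), centring on bright probe sets (adjusted p of 0.0536) and 5 of the 8 fits that left out 1 array.

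Slc7a11 is the cystine carrier, which feeds glutathione synthesis. In 2D Slc7a11 read 6.02, 8.66, 8.39 and 7.78, in 3D 6.37, 7.15, 6.05 and 6.29 and in tissue 4.99, 5.28, 6.0 and 5.72. The 2D values spread widely and overlapped those in 3D, and the highest tissue array lay just below the lowest culture array. Slc7a11 was lower in tissue, with a log2 difference of -2.22 ± 0.53 (SE, adjusted p of 0.0200) against 2D and of -0.97 ± 0.29 (SE, adjusted p of 0.0310) against 3D. Against 2D the call was lost without tissue replicates 2 and 3 (adjusted p of 0.0645). Against 3D it was lost in 10 of 22 alternatives, among them the replicate block (adjusted p of 0.0576), 1 fit of all 12 arrays (adjusted p of 0.125), centring on bright probe sets (-0.69, adjusted p of 0.107) and 5 of the 8 fits that left out 1 array. Slc7a1 carries arginine and lysine. For Slc7a1 the arrays gave 11.69, 11.68, 11.24 and 10.99 in 2D, 11.10, 10.50, 10.62 and 10.59 in 3D and 11.42, 11.68, 11.13 and 11.36 in tissue. Tissue lay above all 3D arrays and within the range of 2D. The difference of Slc7a1 was 0.70 ± 0.18 (SE, adjusted p of 0.0172) against 3D and -0.0025 (adjusted p of 0.993) against 2D, where its 95% confidence interval ran from -0.47 to 0.46. The call of Slc7a1 against 3D was lost in 3 of the 8 fits that left out 1 array. It was also lost on averaging its probe sets (0.29, adjusted p of 0.0940).

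**Figure D4:**
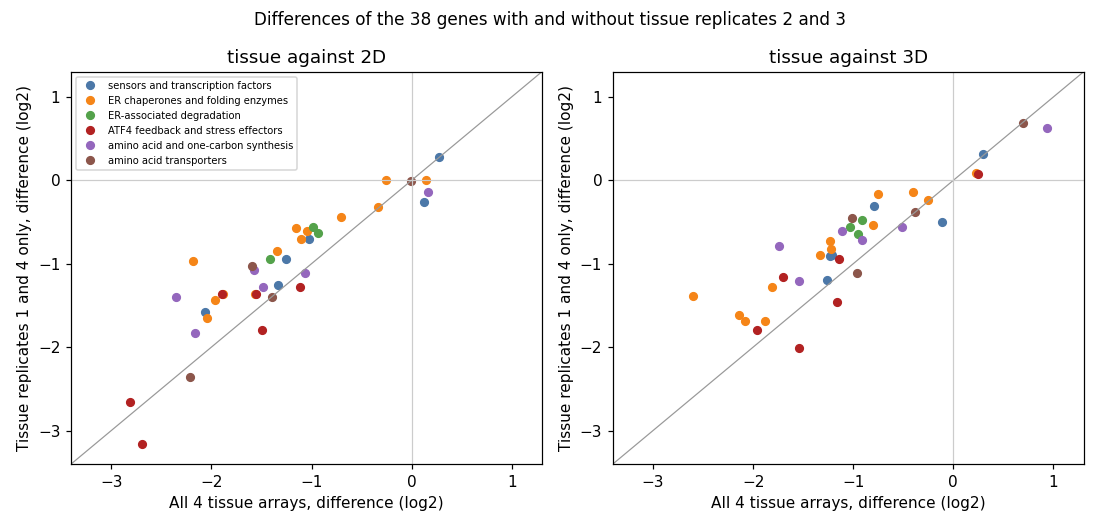
Each point is 1 of the 38 genes, coloured by role, with its log2 difference from all 4 tissue arrays on the horizontal axis and from tissue replicates 1 and 4 on the vertical axis; the diagonal marks equal values. Points above the diagonal and left of 0 are falls that were smaller without replicates 2 and 3, as for Pdia3 and Psat1, and Trib3 lies below the diagonal.

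Between the cultures, 0 of the 38 genes passed the threshold in either direction. Over all genes 0.0165% were higher and 0% lower in 3D. At an unadjusted limma p under 0.05, 15 members were lower and 0 higher, where 5.50% of all genes were lower and 7.57% higher. Arrays did not overlap between the cultures in 11 members, all lower in 3D: Ddit3, Trib3, Chac1, Vldlr, Asns, Psat1, Shmt2, Mthfd2, Aldh18a1, Slc7a5 and Slc3a2. Over all genes 2.87% were lower and 4.49% higher without overlap.

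The larger of these negative differences were mostly those of ATF4 targets. All 6 effectors, all 6 synthesis enzymes and all 4 transporters had a negative 3D minus 2D difference, with medians of -0.63, -0.59 and -0.86. The 13 chaperones had a median of 0.10, with 5 of 13 negative, and the sensors and the degradation genes had medians of -0.04 and -0.08. The median of all genes was 0.01. Of the 15 members at an unadjusted p under 0.05, 13 were effectors, synthesis enzymes or transporters, and the others were Ddit3 and Herpud1. Markers of cell types also differed between the cultures. Of 11 neuronal genes 10 were negative in 3D minus 2D, with a median of -0.37, and of 8 glial genes 5 were positive, with a median of 0.38. None of these passed the limma test, and their part in the members' differences was not tested. The difference between the arms was not tested, and the members had been chosen with such results known.

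Slc7a5 came nearest to the threshold, with -1.02 ± 0.11 (SE, adjusted p of 0.0607). In 1 fit of all 12 arrays it passed (adjusted p of 0.0281). Mthfd2 followed with -0.55 ± 0.09 (SE, adjusted p of 0.119) and Aldh18a1 with -0.57 ± 0.10 (SE, adjusted p of 0.148). Vldlr differed by -1.36 ± 0.27 (SE, adjusted p of 0.168), Chac1 by -0.85 ± 0.17 (SE, adjusted p of 0.174) and Slc3a2 by -0.59 ± 0.12 (SE, adjusted p of 0.179). The 2D arrays of Vldlr spread from 10.42 to 11.82 while the 3D arrays lay between 9.60 and 9.80. The 3D arrays were likewise closer together than the 2D arrays for Ddit3, at 8.74 to 9.17 against 9.56 to 10.99.

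Atf4 itself differed by -0.07 ± 0.09 (SE, adjusted p of 0.806), with a 95% confidence interval from -0.26 to 0.13. Among chaperones and degradation genes the smallest adjusted p were those of Herpud1, with -0.38 ± 0.12 (SE, adjusted p of 0.289), Calr, with 0.28 ± 0.15 (SE, adjusted p of 0.524), and Pdia6, with 0.32 ± 0.20 (SE, adjusted p of 0.581). For Hspa5 the interval ran from -0.41 to 0.17, and for Creld2 from -0.14 to 0.22, so that both bounds are nearer to 0 than the falls in tissue.

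With array quality weights, which give less weight to arrays far from their group, 11 members were lower and 0 higher, where 0.638% of all genes were lower and 1.08% higher. These were Ddit3, Trib3, Chac1, Vldlr, Asns, Psat1, Mthfd2, Aldh18a1, Slc7a5, Slc3a2 and Slc7a1. Without 2D replicate 4 and 3D replicate 1, which lay apart in earlier results, 7 were lower and 0 higher, where 5.01% of all genes were lower and 2.45% higher. The median level of the neuronal markers was 11.07 on 2D replicate 4 and 12.04 to 12.49 on the other 2D arrays, and it was 12.17 on 3D replicate 1 and 11.37 to 11.56 on the other 3D arrays. Without these arrays the cultures did not overlap in that median, and its part in the 7 calls was not tested. The methods' t-test without adjustment found 14 lower and 0 higher, where 4.41% of all genes were lower and 7.23% higher, and after Benjamini-Hochberg adjustment it found 0. Leaving out 2D replicate 4 alone gave 2 lower and 3D replicate 1 alone gave 1, where 61 and 3 of all 18193 genes were lower.

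Further genes of both pathways, listed by role, were counted in the same fits. Of 28 other ER folding and quality control genes, 14 were lower and 0 higher in tissue against 2D, and 17 lower and 1 higher against 3D. Over all genes 14.3% were lower and 9.87% higher against 2D, and 20.1% lower and 15.5% higher against 3D. The gene higher against 3D was Syvn1, the ubiquitin ligase of ER-associated degradation, at 0.56 ± 0.17 (SE, adjusted p of 0.0344), a gene singled out after its value was seen. With tissue replicates 1 and 4 alone these counts were 12 and 0, and 17 and 1. Of all genes, 12.3% were then lower and 10.1% higher against 2D, and 24.6% lower and 22.7% higher against 3D. Creb3l2 and Creb3l1 code for membrane-bound transcription factors of the secretory pathway and had the smallest adjusted p. The levels of Creb3l2 on the 4 arrays were 9.57, 9.65, 9.43 and 9.92 in 2D, 10.05, 10.18, 10.02 and 10.19 in 3D and 8.50, 7.88, 7.56 and 8.23 in tissue. Creb3l1 was at 9.17, 9.44, 10.36 and 10.58 in 2D, at 9.25, 9.60, 9.37 and 9.52 in 3D and at 8.12, 7.98, 8.15 and 8.57 in tissue. Tissue lay below both cultures in both genes, and the 3D arrays of Creb3l2 all lay above 2D. Creb3l2 fell by 1.60 against 2D (adjusted p of 0.00207) and by 2.07 against 3D (adjusted p of 1.54e-04), and Creb3l1 by 1.68 (adjusted p of 0.00823) and 1.23 (adjusted p of 6.87e-04).

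Between the cultures 0 of these 28 passed in limma, with 3 lower and 2 higher at an unadjusted p under 0.05. Over all genes 5.50% were lower and 7.57% higher at that limit. The smallest adjusted p were those of Creb3l2, with 0.47 ± 0.11 (SE, adjusted p of 0.198), and Mbtps1, with 0.44 ± 0.16 (SE, adjusted p of 0.346). Mbtps1 is the protease that cuts ATF6 in the Golgi. In 2D Mbtps1 read 10.46, 10.32, 9.86 and 10.67, in 3D 10.77, 10.79, 10.71 and 10.80 and in tissue 10.26, 9.15, 7.99 and 10.19. The 3D arrays lay above 2D in Mbtps1 too, and tissue replicates 2 and 3 lay far below replicates 1 and 4.

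Of 34 further ATF4 pathway and tRNA synthetase genes, 30 had a probe set, and 20 of these were lower and 0 higher in tissue against 2D, and 19 lower and 1 higher against 3D. The shares over all genes are those given above for the other ER genes. The gene higher against 3D was Gpt2, an alanine transaminase, at 0.74 ± 0.25 (SE, adjusted p of 0.0491), also singled out after its value was seen. With tissue replicates 1 and 4 alone the counts were 18 and 0, and 19 and 2. Eif4ebp1, a repressor of translation initiation that ATF4 induces, and Cars, the cysteine tRNA synthetase, had the smallest adjusted p. For Eif4ebp1 the arrays gave 11.11, 11.36, 12.02 and 11.92 in 2D, 10.94, 11.18, 11.44 and 11.03 in 3D and 8.28, 8.30, 8.86 and 8.59 in tissue. The levels of Cars on the 4 arrays were 9.0, 9.26, 8.50 and 9.23 in 2D, 8.78, 8.83, 8.83 and 8.80 in 3D and 7.16, 7.36, 6.87 and 7.28 in tissue. Tissue lay below both cultures in both genes. Eif4ebp1 fell by 3.10 against 2D (adjusted p of 1.35e-04) and by 2.64 against 3D (adjusted p of 2.28e-05), and Cars by 1.83 (adjusted p of 7.91e-04) and 1.64 (adjusted p of 6.89e-05).

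Between the cultures 0 of the 30 passed, 12 were lower and 0 higher at an unadjusted p under 0.05, and 25 had a negative difference. At that limit 5.50% of all genes were lower and 7.57% higher. Slc1a4, a carrier of serine and alanine, and Iars, the isoleucine tRNA synthetase, came first. Slc1a4 was at 9.89, 10.11, 10.41 and 9.77 in 2D, at 9.04, 9.14, 8.99 and 8.98 in 3D and at 9.45, 10.49, 11.40 and 9.36 in tissue. In 2D Iars read 11.23, 11.40, 11.13 and 11.37, in 3D 10.96, 10.90, 10.81 and 10.82 and in tissue 10.57, 10.52, 10.16 and 10.09. All 3D arrays lay below 2D in both genes. The 3D minus 2D difference was -1.01 ± 0.13 (SE, adjusted p of 0.0849) for Slc1a4 and -0.41 ± 0.08 (SE, adjusted p of 0.177) for Iars.

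The genes were also read by promoter element. The 8 members with ERSE or ERSE-II had a median 3D minus 2D difference of 0.11, and the 7 with CARE, Herpud1 among both, one of -0.85, with 7 of 7 negative. Against 2D the medians in tissue were -1.22, with 7 of 8 lower, and -1.89, with 7 of 7 lower. Against 3D they were -1.22, with 7 of 8 lower, and -1.11, with 6 of 7 lower, Vldlr being the exception. Of all genes, 14.3% were lower in tissue against 2D and 20.1% against 3D. Aldh18a1 and Shmt2, lower in tissue in both comparisons, have none of the searched letters in their windows. Between the cultures, the effectors, synthesis enzymes and transporters without CARE or without a window also had negative differences. Of all 18193 genes, 8578 had a negative 3D minus 2D difference.

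Several cell type markers also differed in tissue, some lower and some higher. All 9 dividing-cell genes with a probe set were lower in tissue in both comparisons, with a median difference of -4.03 against 2D, and their median level was 5.66 to 6.29 on tissue arrays and 8.78 to 9.50 in 2D. Of 8 glial genes, 4 were lower (Sox10, Erbb3, Foxd3 and Cdh19) and 0 higher against 2D, and 4 were lower and 1 higher against 3D. The glial medians were 9.18 to 10.67 in tissue and 10.97 to 11.23 in 2D. Of 8 endothelial genes, 5 were higher against 2D (Kdr, Tek, Tie1, Cldn5 and Vwf), with medians of 6.53 to 7.75 in tissue and 5.25 to 5.88 in 2D. Of 11 neuronal genes, 1 was higher against 2D (Slc6a2) and 0 lower in limma, and the tissue medians ran from 10.79 to 13.25 beside 11.07 to 12.49 in 2D. Against 3D, 5 neuronal genes (Th, Slc6a2, Slc18a2, Elavl4 and Hand2) and 6 endothelial genes (Cdh5, Kdr, Tek, Tie1, Cldn5 and Vwf) were higher. With replicates 2 and 3 of the tissue left out, 11 of 11 neuronal genes were higher against 3D, with a median difference of 1.3, and 2 against 2D, with a median of 1.10. Endothelial genes were then higher in 8 of 8 against 3D and 7 of 8 against 2D, glial genes lower in 4 and higher in 2 against 3D and lower in 3 and higher in 1 against 2D, and the 9 dividing-cell genes lower in both.

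The fibroblast genes (10) had tissue medians of 10.18 to 12.60 beside 11.99 to 12.56 in 2D, and the macrophage genes (10) of 8.17 to 9.09 beside 6.36 to 9.53. Single fibroblast genes moved in both directions, with differences from -3.08 to 3.78 against 2D. Of them, 3 were higher and 2 lower against 2D, and 2 higher and 2 lower against 3D. Of the macrophage genes, 0 were higher and 2 lower against 2D, and 5 higher and 3 lower against 3D. The muscle genes (8) had medians of 4.55 to 8.85 in tissue and 4.67 to 4.86 in 2D, and the B and plasma cell genes (5) of 4.89 to 6.96 and 4.95 to 5.30. Of the muscle genes, 2 were higher against 2D and 4 against 3D, with 0 lower, and 0 B and plasma cell genes were called. In 3D the medians were 8.83 to 9.44 for dividing cells, 11.13 to 11.42 for glia and 11.37 to 12.17 for neurons. The part of cell makeup in the differences of the stress genes was not tested.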

How the data were processed

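Messenger RNA was measured on 12 arrays, with groups taken from the sample titles. The authors deposited log2 values made with RMA in Affymetrix Expression Console (background adjustment, quantile normalization, summarization); its version was not given in the sources used here. Quantile normalization gives the probe intensities of all arrays 1 distribution before summarization and hides any shift that most genes share. The summarized values still differ in spread, with an SD of 1.93 on tissue replicate 3 and 2.42 on 2D replicate 1. No unit was changed, no pseudocount was added, and scanner files were not used here, so scan batches were not tested. The number of arrays limits the precision, and the labels do not say how many animals gave a replicate.

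Of 45101 probe sets, 64 controls were left out. Symbols came from the platform annotation, with 34945 probe sets of 1 symbol, 932 of several and 9160 unnamed here; 34741 matched RefSeq and 0 symbols changed. Each pair of groups was compared with limma 3.58.1 (lmFit, eBayes) in R 4.3.3, and p-values were adjusted by Benjamini-Hochberg over 45037 probe sets; statmod 1.5.0 served the array weights. Each comparison shares a group with the others, so they are not independent. The fits were tested on simulated data. Of the arrays, 0 pairs were identical, and the smallest root mean square difference was 0.187. Figures and promoter searches used Python 3.

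Alternatives were cyclic loess, centring on probe sets with a mean of at least 6, 1 fit of 12 arrays, array weights, eBayes with trend and robust options, a filter at 6 on at least 4 arrays (26551 probe sets), a replicate block, other probe set choices, the methods' t-test and leaving out arrays. The background of bright genes was added after seeing the data. The members, lists and alternatives were chosen with earlier results of these data known. Named are all sensors and transcription factors, and for each comparison the 2 genes with the smallest adjusted p in each other role group and pathway list; Hspa5 and other members are given besides for their role or exceptions.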

Additional observations from a re-analysis of the deposited data

Results flagged for a closer look

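A value far from the other 3 of its group was searched for in 114 groups of 4 arrays, the 38 genes in 3 groups each, by setting its gap to the nearest value against the range of the group (Dixon's test). Chance alone marks about 1 group in 20, and 5 of 114 were marked. Atf6, the ATF6 sensor, was at 7.35 on tissue replicate 3, where the nearest value was 8.49. Eif2ak3, the PERK sensor, was at 7.91 on the same array, with the nearest value at 9.04. That array is 1 of the 2 with a large 3′ minus 5′ difference, and the part of this in both values was not tested. Pdia3, a disulfide isomerase, was at 11.16 on 2D replicate 3, with the nearest value at 12.64. Trib3, the ATF4 feedback gene, was at 8.64 on 3D replicate 2, with the nearest value at 8.99. Aldh18a1, of proline synthesis, was at 11.20 on 3D replicate 3, with the nearest value at 11.08.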

How the results depend on the processing

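Between the cultures, from 0 lower, 1 fit of all 12 arrays gave 1, array weights 11, the methods' t-test without adjustment 14 and leaving out 2D replicate 4 with 3D replicate 1 gave 7, and leaving out 1 array gave 0 to 2. Of the genes lower in tissue against 2D, 29 in the reported fit, the methods' t-test with adjustment found 16, tissue replicate 1 alone 10, where that array is assumed to vary like the culture arrays that supply all the spread, and leaving out 1 array 18 to 31. Cyclic loess and the methods' t-test without adjustment each found 1 higher there. Against 3D the 27 lower genes were 19 by the methods' t-test with adjustment and 19 to 28 on leaving out 1 array. Over all 18193 genes, these fits found 2881 and 2553 to 4363 lower, beside 3660 in the reported fit. The 2 members higher against 3D were 3 with cyclic loess and with centring on bright probe sets. They were 1 on averaging each gene's probe sets and 1 to 2 on leaving out 1 array. Xbp1 turned in tissue against 3D, from 0.30 to -0.73 on averaging its probe sets and to -1.86 with the probe set of highest SD. Leaving out each array in turn kept 18 of 29 calls against 2D and 20 of 29 against 3D, and every alternative run kept 8 and 16. The cause was not tested.

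Centring on bright probe sets moved the median difference of all genes in tissue to 0.31 against both cultures. The share of higher genes among all called was 40.9% against 2D and became 61.6%, was 43.5% against 3D and became 60.6%, and was 52.3% in both with cyclic loess. Relative to that shift, 25 and 23 members were lower with centring and 25 and 25 with cyclic loess. Of all 18193 genes, 1882 and 2627 were lower with centring and 2378 and 3406 with cyclic loess.

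Same-numbered arrays correlated at 0.03 to 0.41 between 3D and 2D, at -0.07 to 0.35 between tissue and 2D and at 0.01 to 0.25 between tissue and 3D. The same number was the best partner for some arrays and not for others. Whether the numbers pair the samples is therefore not settled by these values. With the replicate block 0 members were lower between the cultures, 30 against 2D and 26 against 3D. Of all 18193 genes, 0, 2643 and 3489 were lower in these fits. RMA values carry no detection call, so dim genes such as Slc7a11 in tissue give differences close to background.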
